A study of Mus musculus with 76 samples.

Results

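The 45 genes described here act in S phase, when DNA is copied, and in G2 and mitosis, when the copies are divided between daughter cells. They were chosen by name, 18 for S phase and 27 for G2 and mitosis (G2/M), from the 38924 genes of a count table, and all 45 were found in it. The study grew neural cells from mouse embryonic stem cells of 2 inbred backgrounds, C57BL/6J, written B6, and WSB/EiJ, written WSB, and sequenced polyadenylated RNA from bulk cultures. Cultures came from a neural progenitor stage (NPC), a neuronal maturation stage and a stage of axonal regrowth. At each stage untreated control cultures were set against cultures given ID-8, which inhibits the Dyrk1a kinase. Axons were left uncut or were cut (axotomy) at the last stage.

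The 16 groups held 70 libraries. At the NPC stage there were 6 libraries each of B6 control, B6 ID-8, WSB control and WSB ID-8, and at maturation 4 libraries of each of the same combinations. At the axon stage each strain was sampled as control or ID-8 and as uncut or cut, with 4 libraries in 6 groups and 3 libraries in the B6 ID-8 cut and WSB ID-8 uncut groups. Controls and treated cultures of a strain shared the stem cell background, and the number of stem cell lines or clones per strain, the ID-8 dose and the culture times are not given in the sources used here. The library numbers in the sample titles fall into 3 series, called library sets here. Set 1 held NPC libraries, set 2 held NPC and axon libraries, and set 3 held 4 WSB axon libraries and all of maturation. The titles do not say that all libraries of a group came from separate cultures, so the p-values measure the spread between these libraries, which may be technical in part.

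Cells prepare for S phase by loading the MCM helicase, Mcm2 to Mcm7, onto replication origins with the loading factors Cdc6 and Cdt1, and cyclin E, encoded by Ccne1 and Ccne2, starts the phase together with transcription factor E2f1. Entry into mitosis depends on the kinase Cdk1 bound to cyclin B, and the mitotic kinases, the spindle motors and the cytokinesis proteins then act in turn. Neural progenitors divide and neurons do not, so transcripts of this kind are used as a sign of cycling cells in neural cultures. Dyrk1a is known to help assemble the DREAM complex, a repressor of cell cycle genes that acts through E2F sites and through a promoter element called CHR, the cell cycle genes homology region.

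Promoter sequences are shown because both classes of genes are known targets of such elements. RefSeq promoter windows of build GRCm38.p6, from 250 bases before to 50 bases after the transcript start, were held for 35 members. No window was held for Mcm4, Gins1, Gins2, Ccne2, Ccna2, Cdc25c, Aurkb, Kif20a, Tpx2 and Foxm1. Both strands were searched for a CHR (TTTGAA or TTCGAA), an E2F motif (TTCCCGC or TTGGCGC) and a CCAAT box (CCAAT), and matches to different motifs were allowed to overlap. A CHR match was held by 18 of the 22 G2/M windows (81.8%) and by 2 of the 15 S phase windows (13.3%), against 19.2% of all 32851 windows. An E2F match was held by 8 of the 15 S phase windows (53.3%) and by 5 of the 22 G2/M windows (22.7%), against 6.81% of all windows. CCAAT was held by 10 of the 15 S phase windows (66.7%) and 19 of the 22 G2/M windows (86.4%), against 37.4% of all windows. A match is a description of the letters, not evidence of binding.

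The 250 bases before the start are printed for 4 members, the 2 of each class with the smallest p among those with a window in the comparison of B6 maturation with B6 NPC controls. Capitals mark matches to any of the 3 motifs on either strand. Mcm6 and Mcm7 encode helicase subunits, Racgap1 a subunit of the centralspindlin complex of the dividing cell, and Ect2 the exchange factor that activates RhoA for cytokinesis. All 4 lie on the minus strand, and the sequences read in the direction of transcription.
Mcm6 (chr1:128359706-128359955): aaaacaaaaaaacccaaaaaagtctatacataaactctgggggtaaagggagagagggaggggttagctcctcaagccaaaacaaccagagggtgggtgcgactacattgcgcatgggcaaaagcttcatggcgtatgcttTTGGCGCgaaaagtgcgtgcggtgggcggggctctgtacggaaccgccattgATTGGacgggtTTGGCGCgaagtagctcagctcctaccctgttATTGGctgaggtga
Mcm7 (chr5:138171884-138172133): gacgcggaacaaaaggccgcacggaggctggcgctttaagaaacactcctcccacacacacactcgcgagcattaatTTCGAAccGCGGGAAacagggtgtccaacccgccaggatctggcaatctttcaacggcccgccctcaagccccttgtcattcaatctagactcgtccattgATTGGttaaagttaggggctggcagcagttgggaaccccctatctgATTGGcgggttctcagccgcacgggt
Racgap1 (chr15:99651657-99651906): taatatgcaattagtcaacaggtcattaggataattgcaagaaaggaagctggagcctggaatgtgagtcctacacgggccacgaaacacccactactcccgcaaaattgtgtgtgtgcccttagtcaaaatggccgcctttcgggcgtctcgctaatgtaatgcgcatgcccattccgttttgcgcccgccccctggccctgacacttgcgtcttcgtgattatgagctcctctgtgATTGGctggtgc
Ect2 (chr3:27153879-27154128): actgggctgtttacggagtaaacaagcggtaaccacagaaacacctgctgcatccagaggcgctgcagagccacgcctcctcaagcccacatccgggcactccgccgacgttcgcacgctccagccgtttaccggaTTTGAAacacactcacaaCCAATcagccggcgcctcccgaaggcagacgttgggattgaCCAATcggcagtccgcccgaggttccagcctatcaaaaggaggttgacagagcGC
Mcm6 held 2 E2F matches and 2 CCAAT matches and no CHR match. The Racgap1 window held 1 CHR match, which lies past the start and outside the printed stretch. In Ect2 the last capitals are the start of an E2F match that overlaps a CCAAT box and runs past the printed end. Mcm7 and Ect2 each had a second RefSeq start, and the first one listed is shown.

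The libraries held 20.4 to 131.5 expected counts in units of 1e6, and 18643 to 21389 genes were detected per library. Levels are given as counts per 1e6 counts of the library total (CPM), mean ± SD over libraries, and differences as log2 ± SE with p-values from the quasi-likelihood test of edgeR adjusted over all genes tested. A gene is said to rise or fall where the adjusted p was under 0.05. All 45 members passed the filter on low counts in the NPC and axon fits, and 44 did at maturation, where Cdc25c, the phosphatase that activates Cdk1, did not. In these bulk cultures fewer cycling cells and less of the RNA per cell cannot be told apart. Neural progenitor markers (Sox1, Sox2, Sox3, Nes, Pax6, Hes5, Fabp7, Msi1 and Prom1) summed to 437.8 to 1847 CPM in the NPC libraries and to 671.2 to 2166 CPM at maturation. Their summed ranges overlapped, while 6 of 9 fell and 1 rose between NPC and maturation in B6 controls and 7 of 9 fell and 1 rose in WSB. Markers of pluripotent cells, 10 genes such as Pou5f1 and Nanog, were present at the NPC stage, with sums of 456.6 to 1277 CPM in B6 control, 1005 to 2384 in B6 ID-8, 41.7 to 75.4 in WSB control and 84.7 to 452 in WSB ID-8. Between NPC and maturation controls, 3 of 9 pan-neuronal markers, such as Tubb3 and Map2, rose and 4 fell in B6 (median log2 difference -0.02). In WSB 1 rose and 5 fell (median -0.59). Of 6 astrocyte markers 6 rose in B6 and 5 in WSB, and 0 fell. Of the 10 pluripotent markers 9 fell in each strain, and 0 rose in B6 and 1 in WSB. Fibroblast markers rose for 5 of 6 genes in B6 and 6 of 6 in WSB, and 0 fell. Trophoblast markers fell for 6 of 6 genes in B6 and 4 of 6 in WSB, and 0 rose. The part of these markers in the stage differences was not tested.

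Both classes were highest at the NPC stage and lowest at maturation in each strain. In B6 controls the 18 S phase genes summed to 2537 ± 467 CPM at the NPC stage, 519.9 ± 172 in uncut axon cultures and 200 ± 14.7 at maturation. The 27 G2/M genes summed to 4100 ± 1004, 654.4 ± 332 and 58.3 ± 9.68 CPM at the same stages. In WSB controls the S phase sums were 1788 ± 442, 371.2 ± 45.0 and 238.5 ± 40.3 CPM, and the G2/M sums were 3067 ± 761, 369 ± 61.6 and 83.1 ± 24.5 CPM. In neither strain did the NPC control libraries overlap with those of the later stages. The S phase genes took 38.5% of the summed counts of both classes in B6 NPC controls and 77.6% in B6 maturation controls, and 36.8% and 74.5% in WSB.

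**Figure D1:**
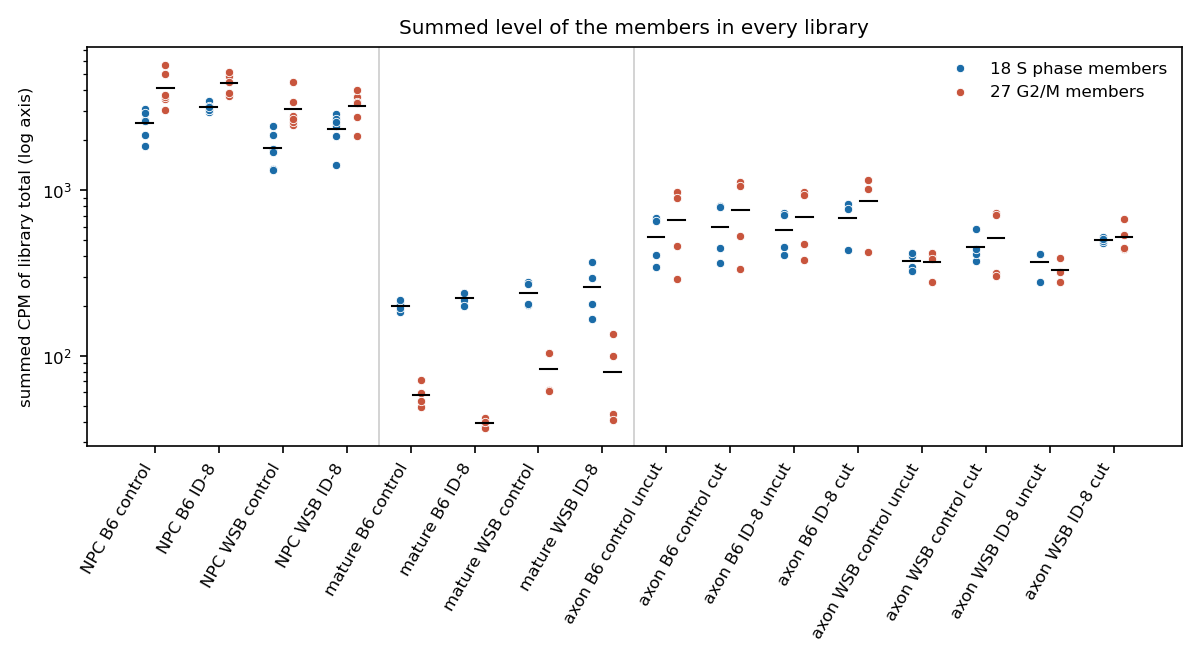
Summed CPM of the 18 S phase genes and of the 27 G2/M genes in each of the 70 libraries, by group, on a log axis. NPC libraries are highest. At maturation the G2/M sums fall below the S phase sums (58.3 against 200 CPM on average in B6 controls), and the S phase sums of some WSB ID-8 libraries there reach those of the lower axon libraries.

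Between the NPC and the axon stage, compared within library set 2, 45 of 45 members fell in B6 and 45 of 45 in WSB. Of all genes tested, 33.3% fell in B6 and 29.7% in WSB. The median log2 difference of the S phase genes was -2.26 in B6 and -2.22 in WSB, and that of the G2/M genes was -2.76 and -2.92, against -0.04 and -0.01 over all genes tested. E2f1 changed by -2.28 ± 0.18 in B6 and -2.49 in WSB, and Mcm2 by -3.14 and -2.97. Mki67, whose protein Ki-67 is the usual histological marker of cycling cells, changed by -2.78 in B6 and -1.95 in WSB. Bub1, a kinase of the spindle checkpoint, changed by -3.53 in B6, the largest fall there, and Cdc25c by -3.63 in WSB, the largest there. In the same comparisons 9 of 10 pluripotent markers fell in B6 and 8 of 10 in WSB, and 0 rose. Astrocyte markers rose for 6 of 6 genes in B6 and 5 of 6 in WSB, and fibroblast markers for 6 of 6 and 3 of 6, and 0 fell. Pan-neuronal markers rose for 5 of 9 in B6, where 0 fell, and in WSB 3 rose and 2 fell. The part of these markers was not tested.

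Between the NPC stage and maturation 45 of 45 members fell in B6, where 36.4% of all genes tested fell, and 44 of 45 fell in WSB, where 35.8% did. The median log2 difference was -4.24 for the S phase genes and -6.81 for the G2/M genes in B6, and -3.71 and -5.29 in WSB. Racgap1 had the smallest p of the G2/M genes, at -4.17 ± 0.15 in B6 (adjusted p = 1.17e-14) and -4.35 ± 0.15 in WSB. Mcm6, Gins1 and Mcm2 fell by 4.97, 4.89 and 4.68 in B6 on the log2 scale, Gins1 being part of the GINS complex that works with the helicase. Top2a, the topoisomerase that untangles chromosomes, fell by 8.91 in B6 and by 6.67 in WSB. Tyms, thymidylate synthase, was the 1 member without a call, at -0.48 in WSB. All maturation libraries were in set 3 and all NPC libraries in sets 1 and 2, so stage and library set cannot be told apart in this comparison, and the comparisons share the NPC controls.

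The members differed in how much of their NPC level was left. At maturation in B6 controls the median member kept 5.34% of its mean NPC CPM among the S phase genes and 0.886% among the G2/M genes, and in WSB 7.95% and 2.68%. In axon cultures the medians were 19.7% and 16.9% in B6 and 17.8% and 10.2% in WSB. Tyms kept 47.0% at maturation in B6 and 74.0% in WSB. Ccne1 kept 25.6% and 29.0%, Ccne2 28.0% and 23.7%, and Pcna, the sliding clamp of the replication fork that is also used in DNA repair, 21.5% and 25.6%. Anln, an actin-binding protein of the cleavage furrow, kept most of the G2/M genes, with 13.0% and 22.4%. Bub1 kept the least in B6 (0.191%, and 1.23% in WSB) and Bub1b the least in WSB (0.553%). Top2a kept 0.209% and 1.02% and Mki67 0.266% and 1.34%. Among the S phase genes Mcm5 kept the least in both strains (1.14% and 3.43%).

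**Figure D2:**
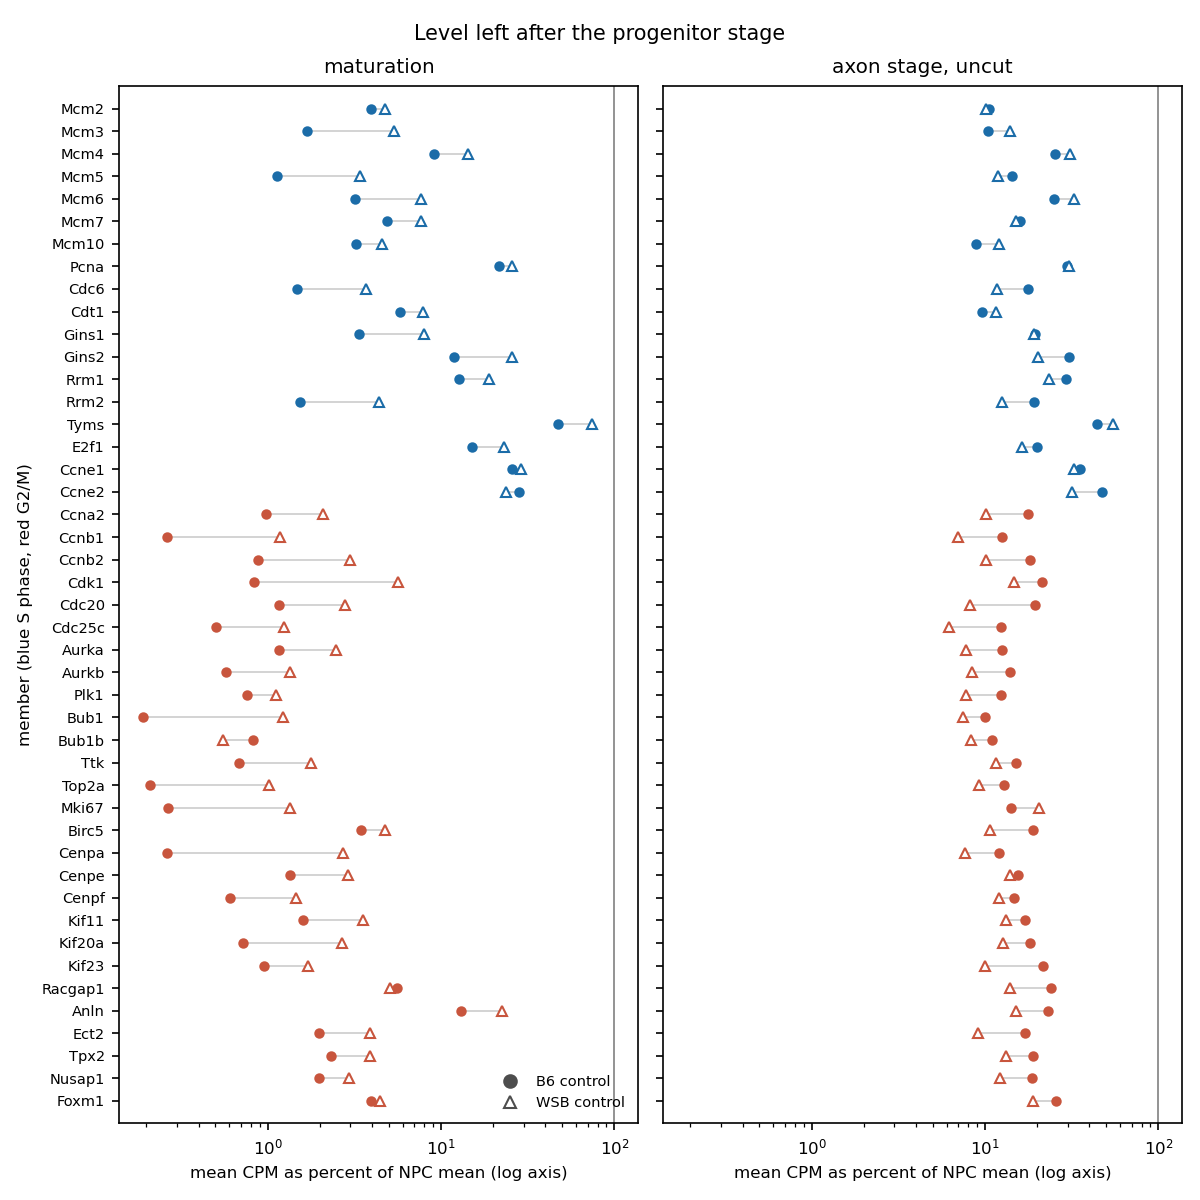
Mean CPM of each member in control cultures as a percent of its mean in NPC controls of the same strain, on a log axis, at maturation and in uncut axon cultures. Most G2/M genes lie left of most S phase genes at maturation (median 0.886% against 5.34% in B6), and Tyms lies farthest right, at 47.0% in B6 and 74.0% in WSB.

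Per kilobase of exon, the scale on which genes can be compared, Pcna was the most abundant member in B6 NPC controls at a mean of 92.5 CPM per kb, followed by Rrm2 (a ribonucleotide reductase subunit) at 87.2 and Top2a at 76.2, and Cdc25c was the lowest at 5.12. Pcna was again first at maturation in B6, at 19.8 CPM per kb, while Rrm2 and Top2a no longer stood among the first 4.

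At the NPC stage the genes were lower in WSB than in B6. Of the 45 members 27 fell and 0 rose in WSB control against B6 control, where 25.0% of all genes tested fell and 20.0% rose. The 12 S phase genes among them were Mcm2 to Mcm7, Mcm10, Cdc6, Cdt1, Ccne1, E2f1 and Rrm2. The 15 G2/M genes were the cyclins Ccnb1 and Ccnb2 with Cdk1 and its activator Cdc25c, the kinases Plk1, Aurka, Bub1 and Bub1b, the anaphase activator Cdc20, the centromere proteins Cenpa and Cenpe, the motors Kif11 and Kif20a, and Anln and Ect2 of cytokinesis. The median log2 difference was -0.53 for the S phase genes and -0.44 for the G2/M genes. It was 0.00 over all genes tested, and 43 of 45 members were below 0. GRCm38 is the only genome build named in the processing notes, and no separate build is named for WSB. Whether WSB sequence variants lowered or moved the counts of single genes was not tested, here or at the later stages. Only annotated pseudogene copies were looked at, as described below.

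Mcm3 stood at 132.3, 230.6 and 266.3 CPM in B6 control (lowest, median and highest of 6) and at 79.2, 104.0 and 166.7 CPM in WSB control. The groups overlapped, and the log2 difference of Mcm3 was -0.91 ± 0.18 (adjusted p = 0.000299). Mcm10, which helps to start the fork, stood at 40.0, 63.7 and 82.1 CPM in B6 and 20.9, 30.0 and 45.8 CPM in WSB, a difference of -0.997 ± 0.20 (adjusted p = 0.000429), the largest of the members. Bub1b, the checkpoint kinase BubR1, stood at 104.7, 148.5 and 231.2 CPM against 67.4, 73.9 and 125.6 CPM, a difference of -0.90 ± 0.18 (adjusted p = 0.00044). The histone Cenpa, which marks centromeres, did not overlap, with 64.5 to 92.6 CPM in B6 and 36.4 to 60.9 CPM in WSB (-0.67 ± 0.14, adjusted p = 0.000473). Mcm2 fell by 0.60 (adjusted p = 0.00231).

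Several abundant proliferation markers were not among the calls. Mki67 stood at 255.6, 387.5 and 644.3 CPM in B6 and 260.0, 302.7 and 614.5 CPM in WSB (-0.23 ± 0.21, adjusted p = 0.399). Top2a differed by -0.34 ± 0.21 (adjusted p = 0.188) and Pcna by -0.13 ± 0.12 (adjusted p = 0.393). When each library set was fitted alone, 11 members were lower in set 1 and 14 in set 2. The shares of all genes called in these fits are not given here, so the counts cannot be set against all genes. Mki67 and Top2a, which were not called, turned to 0.081 and 0.024 in set 1 alone. Beside the strain difference of the members, 10 of 10 pluripotent markers were lower in WSB. Pan-neuronal markers, 9 genes such as Tubb3 and Map2, summed to 3473 to 5263 CPM in WSB and 1907 to 5091 in B6, with 2 of 9 higher in WSB. Trophoblast markers were lower in WSB for 6 of 6 genes (median -2.25), endothelial markers for 3 of 4 (median -2.41), and 4 of 9 neural progenitor markers were higher. The part of these markers in the result was not tested.

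ID-8 raised genes of the set at the NPC stage in both strains, mostly S phase genes. In B6, 21 members rose and 0 fell, where 18.4% of all genes tested rose and 22.0% fell. The 13 S phase genes among them were Mcm2 to Mcm7, Mcm10, Pcna, Cdc6, Gins1, Tyms, E2f1 and Ccne1, and the 8 G2/M genes were Aurka, Cdk1, Cenpa, Plk1, Bub1, Birc5, Cdc20 and Ccnb1. In WSB, 10 members rose and 0 fell, where 4.71% of all genes tested rose and 4.86% fell. They were the S phase genes E2f1, Mcm3, Mcm5, Mcm6, Mcm7, Mcm10, Gins1, Pcna and Ccne1 and the G2/M gene Racgap1. The median log2 difference of the S phase genes was 0.44 in B6 and 0.41 in WSB, and that of the G2/M genes 0.31 and 0.11, against -0.04 and 0.00 over all genes tested.

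Ccne1 had the smallest p in B6. It stood at 30.7, 40.7 and 47.6 CPM in control and 51.6, 65.0 and 78.7 CPM in ID-8 cultures, with no overlap, a difference of 0.77 ± 0.12 (adjusted p = 6.8e-05). E2f1 had the smallest p in WSB, at 24.2, 27.8 and 35.7 CPM in control and 37.2, 47.6 and 56.0 CPM with ID-8, again with no overlap (0.78 ± 0.11, adjusted p = 0.000202). In B6 the E2f1 groups overlapped, at 31.3 to 44.7 and 41.7 to 50.7 CPM. Mcm3 in WSB rose from a median of 104.0 to 189.1 CPM (0.73 ± 0.18, adjusted p = 0.0116), and its groups overlapped, since WSB ID-8 replicate 5 was at 90.3 CPM. Mcm10 rose by 0.77 ± 0.20 in B6 (adjusted p = 0.0042), and Pcna by 0.48 ± 0.12 in B6 (adjusted p = 0.00428) and 0.41 ± 0.12 in WSB (adjusted p = 0.0363). Mcm2 had a difference of 0.41 ± 0.15 in each strain, which passed in B6 (adjusted p = 0.0274) and not in WSB (adjusted p = 0.0779).

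Among the G2/M genes, Aurka, the kinase of spindle poles, stood at 55.9, 74.5 and 89.5 CPM in B6 control and 86.0, 104.7 and 120.9 CPM with ID-8 (0.57 ± 0.15, adjusted p = 0.00388). In WSB its values were 42.8, 53.0 and 64.9 CPM and 33.9, 61.7 and 73.6 CPM. Cdk1 rose by 0.52 ± 0.16 in B6 (adjusted p = 0.0126). Racgap1 went from 188.1, 213.9 and 253.0 CPM in WSB control to 262.4, 281.6 and 295.7 CPM with ID-8 (0.37 ± 0.11, adjusted p = 0.0315), with no overlap. In B6 Racgap1 ran from 161.1 to 234.2 CPM in control and from 134.6 to 225.0 CPM with ID-8. Mki67 pointed down, at -0.47 ± 0.21 in B6 (adjusted p = 0.0829) and -0.18 ± 0.21 in WSB (adjusted p = 0.666), and Top2a was at 0.15 ± 0.21 and 0.10 ± 0.21, none of which passed.

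**Figure D3:**
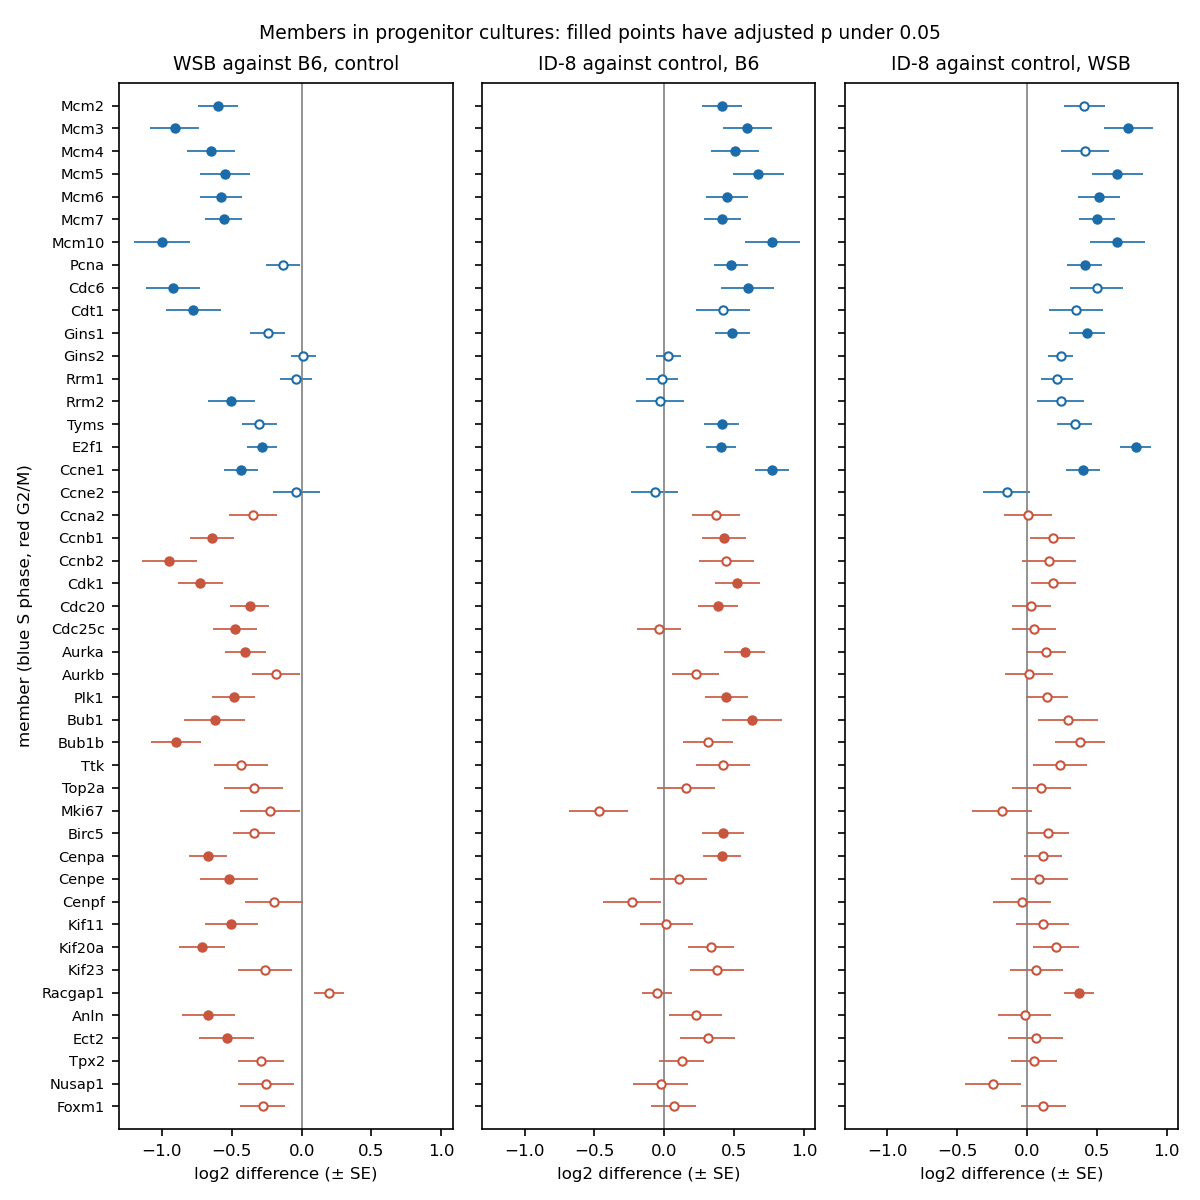
Log2 difference ± SE of each member at the NPC stage for WSB against B6 control and for ID-8 against control in each strain, with filled points at an adjusted p under 0.05. The strain difference lies mostly left of 0 (27 members lower), and the ID-8 differences mostly right of 0 (21 members higher in B6 and 10 in WSB).

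**Figure D4:**
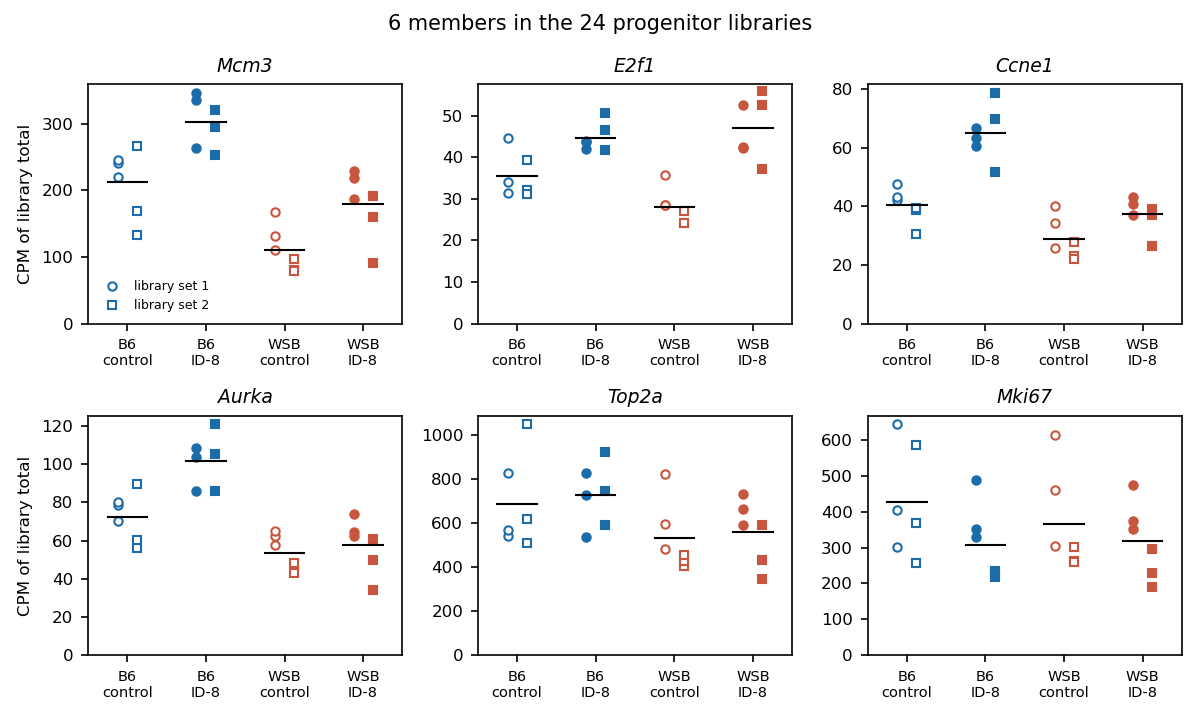
CPM of 6 members in each of the 24 NPC libraries, by strain and treatment, on linear axes from 0. The ID-8 libraries of Ccne1 in B6 (51.6 to 78.7 CPM) and of E2f1 in WSB (37.2 to 56.0 CPM) lie above the controls of the same strain, while those of Mki67 overlap with controls.

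Both strains called 9 of the members, which was 42.9% of the B6 list and 90.0% of the WSB list. Over all genes tested 18.4% rose in B6 and 4.71% in WSB, and the share that both strains called was not counted. The overlap can therefore not be called particular to the members. The test of the difference itself, WSB response minus B6 response, called 0 members with edgeR and 0 with DESeq2, while 4 had an unadjusted p under 0.05 with either tool. With the culture set, read from the sample names in the deposited table, as a block, Racgap1 had a higher response in WSB and Cdk1 and Aurka a lower one, and the WSB response itself had 16 members higher and 1 lower. Without the block, 1.44% of all genes tested had a higher and 1.76% a lower response in WSB. The shares of all genes with the block are not given here. In B6 the ID-8 cultures also had higher sums of pluripotent markers (6 of 10 higher and 1 lower) and fibroblast markers (186.0 to 556.3 CPM against 85.5 to 217.9, 5 of 6 higher), and lower pan-neuronal markers (328.4 to 2505 CPM against 1907 to 5091, 6 of 9 lower) and neural progenitor markers (5 of 9 lower). Endoderm markers summed to 22.5 to 41.0 CPM in B6 control and 47.1 to 288.3 CPM with ID-8, with 5 of 6 higher and a median log2 difference of 4.06. In WSB 9 of 10 pluripotent markers were higher, and 0 of 9 pan-neuronal markers were called. The part of these cells in the ID-8 result was not tested. Fitted alone, set 1 called 1 member and set 2 called 6 in B6, and 0 in either set in WSB, although E2f1 differed by 0.61 and 0.97 in the WSB sets and Ccne1 by 0.59 and 0.97 in the B6 sets.

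At maturation the remaining transcripts were few. In WSB against B6 control 3 G2/M genes rose and 0 members fell of 44 tested, where 7.38% of all genes tested rose and 7.39% fell, so the share of members that rose was near that of all genes. The change of the strain difference between stages was not tested. Bub1b, which was lower in WSB at the NPC stage, pointed down here too without passing. Its difference was -1.53 ± 0.57 (adjusted p = 0.0801 with edgeR, fitted with the pseudogene copies described below). Cenpf, a kinetochore protein, stood at 1.15, 1.37, 1.76 and 1.71 CPM in B6 and 3.63, 2.98, 3.33 and 2.51 CPM in WSB (1.05 ± 0.30, adjusted p = 0.0289). Cdk1 stood at 0.994, 1.24, 0.715 and 0.872 CPM in B6 and at 5.31, 4.74, 3.23 and 1.99 CPM in WSB (a difference of 1.99). Cenpa stood at 0.4659, 0.163, 0.149 and 0.0671 CPM in B6 and at 1.80, 2.47, 0.507 and 0.546 CPM in WSB (2.59 ± 0.81, adjusted p = 0.0401). For each of these 3 genes the 4 WSB libraries lay above the 4 B6 libraries. The genes were picked by their p in the same libraries, so the separation adds no support. How many of all genes separated in this way was not counted. Mki67 (2.10 ± 0.76, adjusted p = 0.0768) and Top2a (1.92 ± 0.68, adjusted p = 0.0725) did not pass, and Pcna stood at 57.2, 60.4, 33.6 and 39.4 CPM in B6 and 67.9, 64.9, 32.4 and 35.2 CPM in WSB.

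In the deposited table the sample names of replicates 3 and 4 of maturation share an experiment code that those of replicates 1 and 2 lack. They are treated here as 2 culture experiments, a reading of the names that no label explains. Pcna, Mki67 and Top2a were higher in replicates 1 and 2 than in replicates 3 and 4 in both strains' controls. With the experiment as a term 10 members were higher and 1 was lower in WSB, and DESeq2 called 8 and 1. The shares of all genes called in these runs are not given here. The calls changed when libraries were left out: 0 members were higher without B6 control replicate 2, WSB control replicate 1 or WSB control replicate 2. Over 8 such refits with edgeR the adjusted p ran from 0.0363 to 0.0793 for Cenpf, 0.0284 to 0.118 for Cenpa and 0.0419 to 0.11 for Cdk1. Fibroblast markers summed to 463.6 to 844 CPM in B6 control and 1489 to 4064 CPM in WSB control, with 5 of 6 called higher, and astrocyte markers to 683 to 4240 and 3396 to 4491 CPM. Their part in the strain difference was not tested.

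ID-8 at maturation changed 4 of 44 members in B6, where 7.71% of all genes tested rose and 9.41% fell. Members were thus called no more often than all genes tested. The S phase genes Mcm7 and Cdt1 rose. Mcm7 stood at 11.3, 14.1, 14.0 and 16.5 CPM in control and 26.9, 26.2, 26.4 and 25.4 CPM with ID-8 (0.96 ± 0.21, adjusted p = 0.00592). Cdt1 stood at 6.86, 7.54, 4.44 and 3.69 CPM and at 11.1, 11.7, 12.3 and 14.6 CPM (1.18 ± 0.35, adjusted p = 0.0305). The cytokinesis genes Anln and Ect2 fell. Anln stood at 14.5, 15.3, 10.5 and 12.4 CPM in control and 3.26, 3.13, 4.504 and 4.18 CPM with ID-8 (-1.77 ± 0.38, adjusted p = 0.0054). Ect2 stood at 2.17, 2.22, 2.89 and 3.12 CPM and at 0.843, 0.759, 1.17 and 1.70 CPM (-1.17 ± 0.29, adjusted p = 0.0105). For these 4 genes the control and ID-8 libraries did not overlap. They were picked by their p in the same libraries, so this is a description and not further support. The share of all genes without overlap was not counted. Members called lower numbered 5 with DESeq2 and 6 with the experiment as a block, against 2 here. The calls of Mcm7, Anln and Ect2 held in 8 of 8 refits that left out 1 library, and that of Cdt1 in 4 of 8.

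In WSB at maturation ID-8 changed 1 member, where 2.86% of all genes tested rose and 3.03% fell. The share of members called was again no higher than that of all genes. Cdt1 stood at 5.39, 5.81, 2.50 and 3.76 CPM in control and at 12.8, 11.8, 4.00 and 14.7 CPM with ID-8 (1.37 ± 0.36, adjusted p = 0.034), with ID-8 replicate 3 within the control range. The call held in 2 of 8 refits that left out 1 library. The difference of the ID-8 responses between strains called 0 members with edgeR and 0 with DESeq2, with 4 and 5 at an unadjusted p under 0.05, where 0.377% of all genes tested had a higher and 0.0826% a lower response in WSB. In B6 with ID-8, 2 of 6 astrocyte, 2 of 4 endoderm and 1 of 4 pluripotent markers were higher and 2 of 4 endothelial markers lower. Neural progenitor markers summed to 671.2 to 1128 CPM in B6 control and to 1223 to 1760 CPM with ID-8. Of these, 2 of 8 tested were higher and 1 was lower. The part of these markers in the result was not tested.

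At the axon stage in uncut control cultures 5 members were lower and 0 higher in WSB than in B6, where 7.56% of all genes tested fell and 5.68% rose. The share of members that fell was near that of all genes. The count of members called lower ran from 1 to 12 when 1 library was left out. DESeq2 called 15 lower, and the share of all genes that it called is not given here. The 4 G2/M genes were Cdc20, Ccnb2, Bub1b and Plk1, and the only S phase gene was Gins2. Cdc20 stood at 23.0, 13.7, 38.7 and 31.4 CPM in B6 and 8.50, 9.31, 9.56 and 6.70 CPM in WSB (-1.45 ± 0.37, adjusted p = 0.011). Ccnb2, cyclin B2, stood at 10.2, 5.97, 22.4 and 20.2 CPM in B6 and 3.74, 5.34, 4.57 and 3.12 CPM in WSB (-1.59 ± 0.46, adjusted p = 0.0239). Gins2 stood at 25.2, 22.2, 31.6 and 26.3 CPM and at 14.1, 19.6, 20.3 and 14.3 CPM (-0.45 ± 0.13, adjusted p = 0.0252). For these 3 genes the strains did not overlap, which adds no support because they were picked by their p in the same libraries. The share of all genes without overlap was not counted.

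Mki67 did not follow them, at 51.1, 31.0, 88.8 and 69.9 CPM in B6 and 45.1, 77.8, 89.1 and 88.8 CPM in WSB. The B6 libraries spread widely: replicates 1 and 2 held G2/M sums of 457.3 and 291.0 CPM and replicates 3 and 4 held 977.1 and 892.3 CPM, while the WSB libraries held 278.9 to 414.8 CPM. The number of members called lower was 12 without B6 replicate 2, 3 without B6 replicate 1, 4 without WSB replicate 4, 2 without WSB replicate 3, and 1 without B6 replicate 3, B6 replicate 4, WSB replicate 1 or WSB replicate 2. Cdc20 was called in 8 of these 8 refits. Fibroblast markers summed to 45.5 CPM in WSB control uncut replicate 1 and to 1512 to 2134 CPM in replicates 2 to 4, against 2184 to 7126 CPM in B6. Astrocyte markers summed to 1030 CPM in that WSB library and to 6557 to 11650 CPM in the other 3, against 1488 to 2482 CPM in B6, and 4 of 4 endothelial markers were lower in WSB than in B6. Their part in the result was not tested.

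No member passed the test for ID-8 or for axotomy at the axon stage. In each of the 6 comparisons, ID-8 against control in uncut cultures of each strain and cut against uncut in each strain with and without ID-8, edgeR called 0 members and 0 of all 18106 genes tested (0% higher and 0% lower), and DESeq2 called 0 members. With the culture set as a block 1 member, Gins2, was higher for ID-8 in uncut WSB (0.47 ± 0.12, adjusted p = 0.0386 with edgeR), and 0 were called in the other 5. Members with an unadjusted p under 0.05 numbered 0 in B6 and 2 in WSB for ID-8, and 0, 1, 0 and 3 for axotomy in B6 control, WSB control, B6 ID-8 and WSB ID-8. The share of all genes at that level is not given here. The comparisons of cut with uncut cultures and of ID-8 with control share the uncut groups within a treatment and strain.

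The differences after axotomy pointed up without passing the test. They were above 0 for 45 of 45 members in B6 control, 43 in WSB control, 45 in B6 ID-8 and 45 in WSB ID-8, with medians of 0.19, 0.36, 0.30 and 0.60 on the log2 scale, against 0.01, 0.01, 0.01 and 0.02 over all genes tested. The members share libraries, so these counts are not independent, and the share of all genes above 0 was not counted. Cut and uncut cultures of 1 culture set, as the sample names in the table give it, can be set side by side. In B6 control the G2/M sum went from 457.3 to 531.1, from 291.0 to 331.2, from 977.1 to 1115 and from 892.3 to 1051 CPM in the 4 sets. In WSB control it went from 278.9 to 314.1, from 400.8 to 727.5, from 414.8 to 300.8 and from 381.4 to 706.6 CPM. It was higher after axotomy in 4 of 4 B6 and 3 of 4 WSB control sets, and in 3 of 3 sets of either strain with ID-8. Mki67 differed by 0.04 ± 0.32 in B6 control and by 0.06 ± 0.32 in WSB control.

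**Figure D5:**
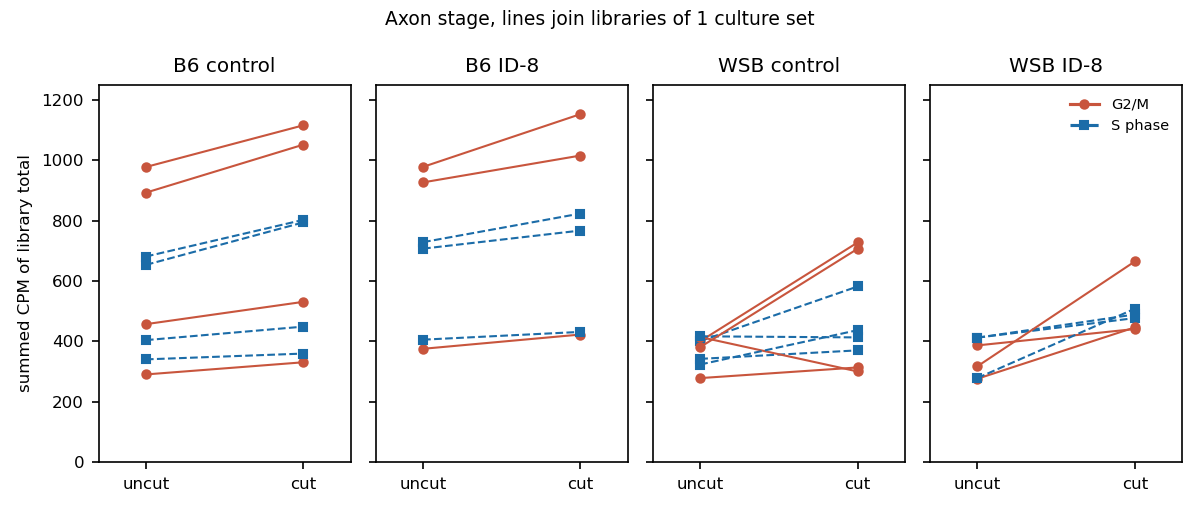
Summed CPM of the S phase and of the G2/M genes in uncut and cut axon cultures of each strain and treatment, with lines joining libraries of 1 culture set. The lines rise in most sets, and in WSB control 1 set falls (G2/M sum 414.8 to 300.8 CPM), while the distance between sets is larger than the rise in B6.

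Other genes of the same processes were taken from 2 lists of names. In WSB against B6 NPC controls 25.0% of all genes tested fell and 20.0% rose. Of 44 other DNA replication genes, such as the origin recognition complex and the polymerases, 32 fell and 1 rose there. Of 47 other mitosis genes 17 fell and 0 rose. With ID-8 at the NPC stage 24 of the 44 replication genes and 16 of the 47 mitosis genes rose in B6, where 1 mitosis gene fell. In WSB 7 and 2 rose. Of all genes tested 18.4% rose in B6 and 4.71% in WSB, so the mitosis genes in WSB were near that share. Between NPC and maturation 43 replication genes fell and 1 rose in B6, and 45 mitosis genes fell and 1 rose, where 36.4% of all genes tested fell. At maturation 2 replication genes were higher and 1 lower in WSB than in B6, and 3 mitosis genes were higher and 3 lower. There 7.38% of all genes tested were higher and 7.39% lower, so neither list was called more often than all genes. ID-8 at maturation raised 2 and lowered 1 of the replication genes in B6 and raised 3 of the mitosis genes, of which 0 fell. The G2/M members called there fell. As 7.71% of all genes tested rose and 9.41% fell, neither list was called more often than all genes there either. At the axon stage 6 replication and 5 mitosis genes were lower in WSB, where 7.56% of all genes tested were lower. For ID-8 or axotomy 0 were called, as was the case for all genes tested.

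Pseudogene copies with at least 85% identity to a member are in the table for 10 members: Ccnb1, Cdc20, Cdc6, Cenpe, Kif11, Mcm4, Pcna, Plk1, Rrm2 and Tpx2. Reads of a near-identical copy and its parent gene can be mistaken for each other. Ccnb1-ps and Gm12856, copies with 99.2% and 98.1% identity to Ccnb1, stood at 2.78 and 4.81 CPM in WSB NPC controls and at 0.00861 and 0 CPM in B6. Ccnb1 itself stood at 203.9 ± 40.0 CPM in B6 and 126.5 ± 24.5 CPM in WSB. With the copies added, its difference was -0.56 ± 0.16 (adjusted p = 0.00674), against -0.64 ± 0.16 (adjusted p = 0.00254) without. Adding the copies of all 10 left the strain counts at 27 lower at the NPC stage, 3 higher at maturation and 5 lower at the axon stage.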

How the data were processed

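Polyadenylated RNA of 76 sequenced runs was used. Per the submitters' processing notes, the authors used Bowtie2, RSEM, featureCounts and limma on build GRCm38, and versions are not given in the sources used here. Per the labels' protocols, the stranded libraries were read on both ends. The deposited values are expected counts, of which 9.318% were not whole. How reads shared by similar genes were divided is not stated apart from the use of RSEM. Symbols came from a GRCm38 annotation, and 1317 identifiers without one held 0.2652% of the counts.

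Here the runs of 6 libraries sequenced in 2 runs were summed and the values were rounded to whole numbers, which gave 70 libraries. The chi-square per degree of freedom was 2.299 to 2.397 between repeat runs and 8.559 to 807.7 between replicates, so replicates were kept apart. Tests used edgeR 4.0.16 (R 4.3.3) with robust quasi-likelihood fits, TMM scaling, filterByExpr and Benjamini-Hochberg adjustment over all genes tested, on each stage with all its groups. Library set was a term at the NPC and axon stages. Stages were compared on controls alone. Alternatives were DESeq2 1.42.0, other size factors, no filter, first runs only, single library sets, blocks and leaving out libraries. The script was tested on simulated data. Class scores, used for culture set pairs, are mean log2(CPM + 0.5). Pseudogene copies were transcripts aligned to a member at 85% identity or more over at least 200 bases and 50% of the shorter transcript, among 13607 pseudogene transcripts.

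The members and lists were chosen with earlier results of these data known. Named were Mcm2, Pcna, Mki67 and Top2a, and in each comparison the 2 called members of each class and direction with the smallest p and the largest called difference. Other members were added after their values were seen. For the level left these were Tyms, Ccne1, Ccne2, Anln, Mcm5, Bub1 and Bub1b. Rrm2 and Cdc25c were added for level per length, Cdk1 and Bub1b at maturation, and Gins2 under the block. The lists of called members and Ccnb1, for its copies, were added too. Intervals and floors are not given, and counts are of reads, not of independent molecules.

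Sample names in the deposited table put axon libraries of different treatments in shared culture sets, a reading that no label explains. The correlation of deviations within a set was over 0.1 for 21 of 21 B6 pairs (lowest 0.647) and 19 of 21 WSB pairs (lowest -0.0604), and for 19 of 19 WSB pairs without ID-8 cut replicate 3. For the replicate numbers of NPC set 1 it was over 0.1 for 14 of 18 pairs over all groups (median 0.211). Within strain it was so for 3 of 3 pairs in B6 (median 0.459) and 3 of 3 in WSB (median 0.296). By culture name in NPC set 2 it was so for 3 of 3 pairs in B6 (median 0.672) and 2 of 3 in WSB (median 0.398). At maturation it was so for 40 of 48 pairs of the same experiment (median 0.35). The main tests did not use these pairings.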

Additional observations from a re-analysis of the deposited data

Results flagged for a closer look

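Mki67 in B6 ID-8 cultures at maturation stood at 0.696 CPM in replicate 2 and between 0.284 and 0.337 CPM in the other 3 libraries. The gap to the nearest library was 0.87 of the range of the group, which is above the 95% limit of Dixon's test for 4 samples. In all, 98 groups of values were tested in this way, and chance alone gives about 1 in 20. They were the class scores, the S phase share of the summed counts, and the CPM of Mcm2, Pcna, Mki67 and Top2a. In control cultures of the same strain and stage replicate 2 was also the highest, at 2.35 CPM against 0.570 to 0.994 CPM.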

How the results depend on the processing

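The falls between stages kept their direction and their count within 1.5 times of the value given under each alternative run. At the NPC stage single library sets called fewer members: 11 (set 1) and 14 (set 2) lower for the strain difference, 1 and 6 higher for ID-8 in B6, and 0 and 0 for ID-8 in WSB, where 2 were higher without the library set term. With the replicate block in set 1 the counts were 17, 7 and 1, and in set 1 alone Mki67 and Top2a of the strain difference turned to 0.081 and 0.024, and with the replicate block to 0.084 and 0.014. A block of the culture sets over both library sets, chosen after seeing the data, called 16 higher and 1 lower (Nusap1) for ID-8 in WSB, and a response difference between strains for 1 member higher in WSB (Racgap1) and 2 lower (Cdk1 and Aurka). At maturation DESeq2 called 8 higher and 1 lower between strains and 5 lower for ID-8 in B6, and the experiment block 10, 1 and 6. For the axon strain difference DESeq2 called 15 lower, and 3 were lower without the filter and 3 without the library set term. The culture set block called 1 member (Gins2) higher for ID-8 in uncut WSB, with and without WSB ID-8 cut replicate 3, and changed no other axon call. It could not be fitted for the axon strain difference. Leaving out 1 library gave 0 to 3 higher and 0 to 1 lower for the maturation strain difference, 1 to 2 higher for ID-8 in B6, 0 to 1 in WSB, and 1 to 12 lower for the axon strain difference. NPC libraries, 6 a group, were not left out in turn. Among them, B6 control replicate 6 had a G2/M sum of 5664 CPM, the highest of the NPC controls. The other B6 controls of set 2 had 3020 and 3738 CPM. The sample names of B6 control and B6 ID-8 replicate 6 carry no date, unlike those of the other NPC libraries of set 2. No label explains this. The causes of the changes between runs were not tested. Shares of all genes called in the alternative runs, or at an unadjusted p under 0.05, are not given here. A change in a member count between runs may therefore go with a change over all genes.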
